A study of Mus musculus with 16 samples.

Results

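The genes described here are 38 components of the lysosome, the acidic organelle in which microglia break down what they engulf: 10 proteases, 7 glycosidases, 5 genes that handle lipids, 7 membrane proteins, 7 genes of the proton pump and the transcription factors Tfeb and Tfe3. They were chosen by symbol as known parts of the organelle, with earlier results of these data known, and all 38 were found among the 57010 genes of the count table. Each reached 5 counts in 8 or more of the 16 libraries, as did 18227 genes in all. The libraries were made from olfactory bulb microglia of mice aged 2 months, with 4 libraries from females and 4 from males of each genotype. WT animals were C57BL/6J mice. APP-NL-G-F animals carry a knock-in in which the Aβ stretch of App is humanised and App carries the disease changes known as Swedish (NL), Iberian (F) and Arctic (G), so that the altered protein is made from the mouse's own App gene in every cell type that uses it. Cells were enriched with magnetic beads against CD11b, a surface protein that other myeloid cells share. The study asked how microglia differ at the age at which noradrenergic axons begin to be lost from the bulb of these mice. The labels number the replicates without saying that each is a separate mouse, so p-values measure the spread between these libraries, which may be partly technical.

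Lysosomes receive engulfed material by fusion with phagosomes and autophagosomes. Their enzymes work best at low pH, which the vacuolar ATPase (V-ATPase) keeps by pumping protons through a membrane ring driven by a soluble, ATP-burning head. TFEB and TFE3 bind E-box motifs in the promoters of many lysosomal genes and raise their transcription when mTORC1 signalling at the lysosomal surface is low. In microglia, cathepsins and the membrane protein CD68 are widely used as markers of phagocytic activity.

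The E-box letters CACGTG, which read the same on both strands, were searched in a window from 270 bases before to 30 bases after the start of the canonical transcript on GRCm39. They occurred in the windows of 9 of the 38 genes (23.7%), in 42 of 178 further lysosomal genes (23.6%) and in 1660 of all 21757 protein-coding promoters (7.63%). The longer form TCACGTGA, every match of which also holds an E-box, occurred in 3 (7.89%), 15 (8.43%) and 230 (1.06%) of these windows. The 9 genes were Atp6v1a, Ctsb, Ctsd, Ctsf, Gaa, Gla, Glb1, Lamp1 and Mcoln1. Of the promoters below, those of Lamp1, Gla and Mcoln1 carry more than 1 match and the last is that of Atp6v0c, the gene with the largest fall described later, with E-boxes in capitals, read 5′ to 3′ on the strand of the gene.
Lamp1, chr8:13208851-13209150, plus strand: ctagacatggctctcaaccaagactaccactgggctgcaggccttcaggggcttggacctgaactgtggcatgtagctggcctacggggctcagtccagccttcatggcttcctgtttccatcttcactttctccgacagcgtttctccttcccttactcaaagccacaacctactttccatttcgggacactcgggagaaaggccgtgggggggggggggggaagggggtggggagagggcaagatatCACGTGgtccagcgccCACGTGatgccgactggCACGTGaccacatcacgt
Gla, chrX:133501875-133502174, minus strand: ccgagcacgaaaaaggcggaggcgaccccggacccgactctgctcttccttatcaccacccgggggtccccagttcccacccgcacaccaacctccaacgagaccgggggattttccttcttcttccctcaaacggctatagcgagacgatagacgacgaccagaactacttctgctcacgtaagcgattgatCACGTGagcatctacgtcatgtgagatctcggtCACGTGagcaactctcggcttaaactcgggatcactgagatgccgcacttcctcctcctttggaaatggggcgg
Mcoln1, chr8:3550182-3550481, plus strand: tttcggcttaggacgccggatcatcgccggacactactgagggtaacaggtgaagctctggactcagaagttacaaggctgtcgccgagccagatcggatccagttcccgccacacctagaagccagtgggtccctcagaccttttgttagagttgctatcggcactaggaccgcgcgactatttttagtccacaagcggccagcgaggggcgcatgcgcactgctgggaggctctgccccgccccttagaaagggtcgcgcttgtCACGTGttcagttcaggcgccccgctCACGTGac
Atp6v0c, chr17:24388664-24388963, minus strand: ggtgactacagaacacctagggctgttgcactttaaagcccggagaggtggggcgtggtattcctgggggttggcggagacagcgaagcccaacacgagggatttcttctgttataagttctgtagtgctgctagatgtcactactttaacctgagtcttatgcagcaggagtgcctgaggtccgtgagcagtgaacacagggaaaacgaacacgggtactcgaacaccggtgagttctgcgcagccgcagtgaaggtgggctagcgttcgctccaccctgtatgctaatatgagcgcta
In Lamp1 the 3 matches began 21 and 5 bases before and 13 bases after the transcription start, and in Gla the 2 matches began 77 and 44 bases before it. The windows of Atp6v0c and Tfe3 held no match. Each window follows the canonical start alone, and the annotated Atp6v0c gene begins further upstream, at 24389703. The annotated genes of Cd63 and Lipa also begin upstream of their windows. Promoters of other transcripts were not searched. A match describes the letters of the window and is no measure of binding.

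Together the 38 genes took 169081 to 402575 counts per library, out of library totals of 9052932 to 18117286. This was 1.97% ± 0.129 (SD, n = 8) of the counts in WT and 1.97% ± 0.0706 (SD, n = 8) in APP-NL-G-F libraries. Levels of different genes were compared as CPM (counts over the TMM-corrected library size) per kilobase of the canonical transcript, so that longer transcripts do not count as more RNA. On this scale Ctss, the cysteine protease cathepsin S typical of antigen-presenting cells, stood at 3679 ± 363 (SD, n = 8) in WT and was number 7 of 17369 tested genes with a known length. Ctsd, the main aspartic protease of lysosomes, followed at 941 ± 68.7. Psap, the precursor of the saposins that help break down sphingolipids, was at 691 ± 41.7, and Laptm5, a lysosomal membrane protein of blood and immune cells, was at 620 ± 36.0. The WT ranges of Ctss and Ctsd did not overlap with each other or with any lower gene, whereas those of Psap and Laptm5 overlapped.

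Ctsb (389 ± 25.3), Lamp1 (272 ± 19.4), Hexa (239 ± 16.1) and Cd68 (216 ± 17.5) came next, all in CPM per kilobase in WT. Of the 37 pairs of neighbours in this order, 26 had overlapping WT ranges and 11 did not. Lower in the order, Tfe3 was at 35.8 ± 1.89, Mcoln1 at 14.9 ± 1.5 and Tfeb at 13.8 ± 1.19. The sialidase Neu1 (11.6 ± 1.58) and the α-galactosidase Gla (6.87 ± 1.35) were the lowest hydrolases. Atp6v0d2, the d subunit of the pump that osteoclasts use, was at 0.252 ± 0.163 and held only 3 to 19 counts per library. Levels per kilobase rest on the canonical transcript, and that of Ctsl is 5.91 kilobases long, so a shorter transcript in use would place it higher.

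**Figure D1:**
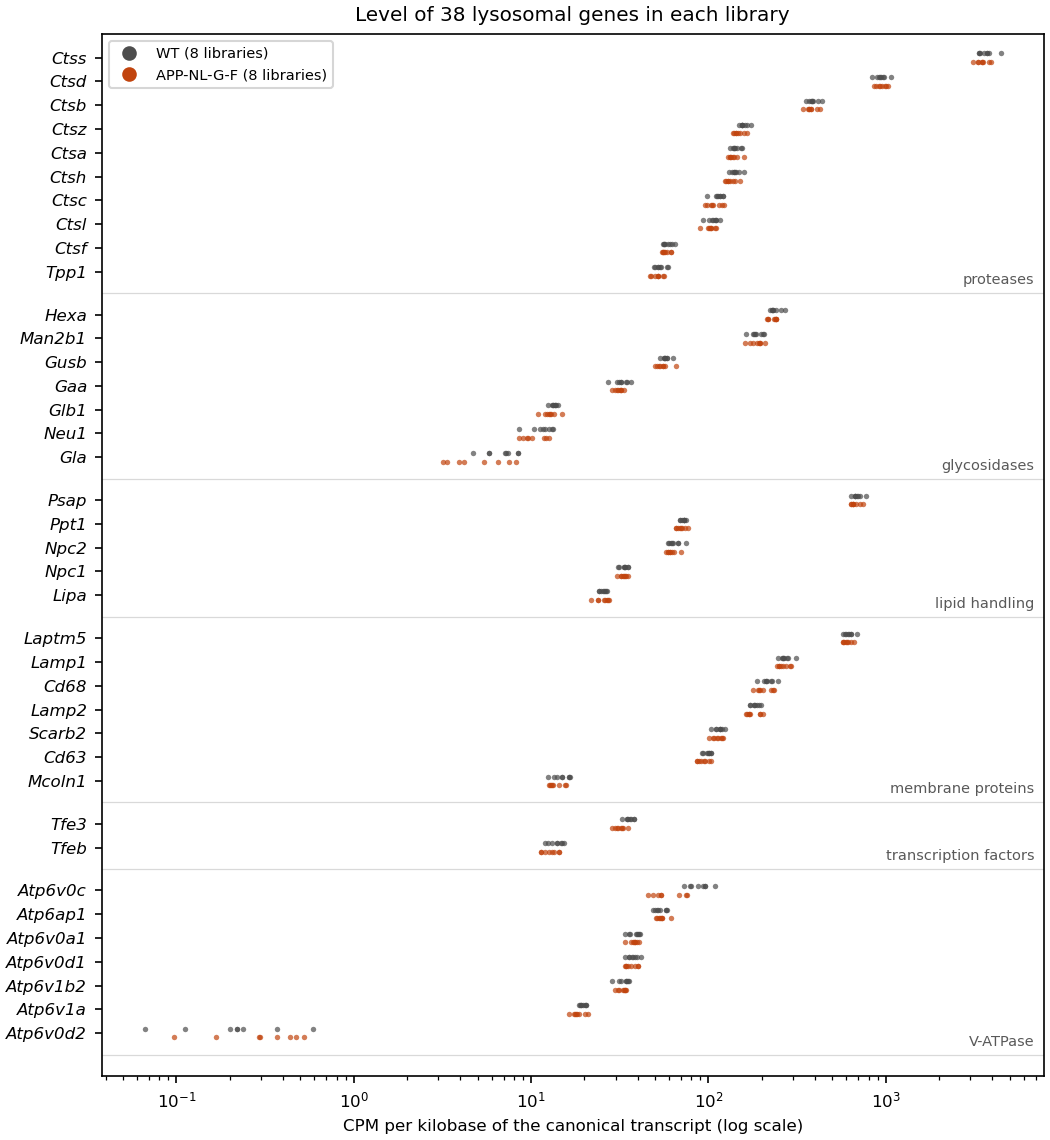
Level of each of the 38 genes, in CPM per kilobase of the canonical transcript on a log axis, with 1 point for each library and the genes grouped by role. WT libraries are grey and APP-NL-G-F libraries are orange. Ctss lies highest near 3679 and Atp6v0d2 lowest at 0.252 in WT, and the genotypes lie on top of each other for most genes but Atp6v0c.

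Each of the 38 genes was compared between the genotypes. Over both sexes, 1 of the 38 genes (2.63%) was differentially expressed by the study's rule, a Benjamini-Hochberg FDR below 0.1 in edgeR's quasi-likelihood test together with an absolute log2 fold change above 0.5. The same rule called 8.64% of all genes tested. It called 2.51% of the 6333 protein-coding genes of like level, a share near that of the 38. Genes of like level are those at least as high as the lowest of the 38 apart from Atp6v0d2. By the FDR alone 2 of the 38 genes (5.26%) passed, against 14.8% of all genes tested and 14% of the genes of like level. An unadjusted p below 0.05 was reached by 3 (7.89%), against 24.1% and 23.2%. The gene called was Atp6v0c, and the other under the FDR was Tfe3, both lower in APP-NL-G-F. For none of the 38 genes did the 8 WT and 8 APP-NL-G-F libraries occupy separate ranges, which 1.29% of all genes tested did.

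Most intervals were narrow. The 95% interval of the log2 fold change lay within ±0.5 for 35 of the 38 genes and within ±0.25 for 32, against 55.7% and 33.0% of all genes tested and 91.7% and 73.9% of the genes of like level. The exceptions to ±0.5 were Atp6v0c, Gla and Atp6v0d2, and Tfe3, Neu1 and Mcoln1 also reached beyond ±0.25. The estimate was below 0 for 35 of 38 genes, with a median log2 fold change of -0.05, while it was below 0 for 50.4% of all genes and for 61.6% of the genes of like level, with medians of -0.0014 and -0.02. With library totals in place of TMM factors the median of all genes moved from -0.001 to 0.05 and that of the 38 from -0.053 to -0.003, and 20 of the 38 estimates were then below 0. Without WT male replicate 2, 30 of the 38 were below 0 and their median was -0.023. The 9 genes with an E-box in the searched window had a median log2 fold change of -0.05, as did the 29 without.

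**Figure D2:**
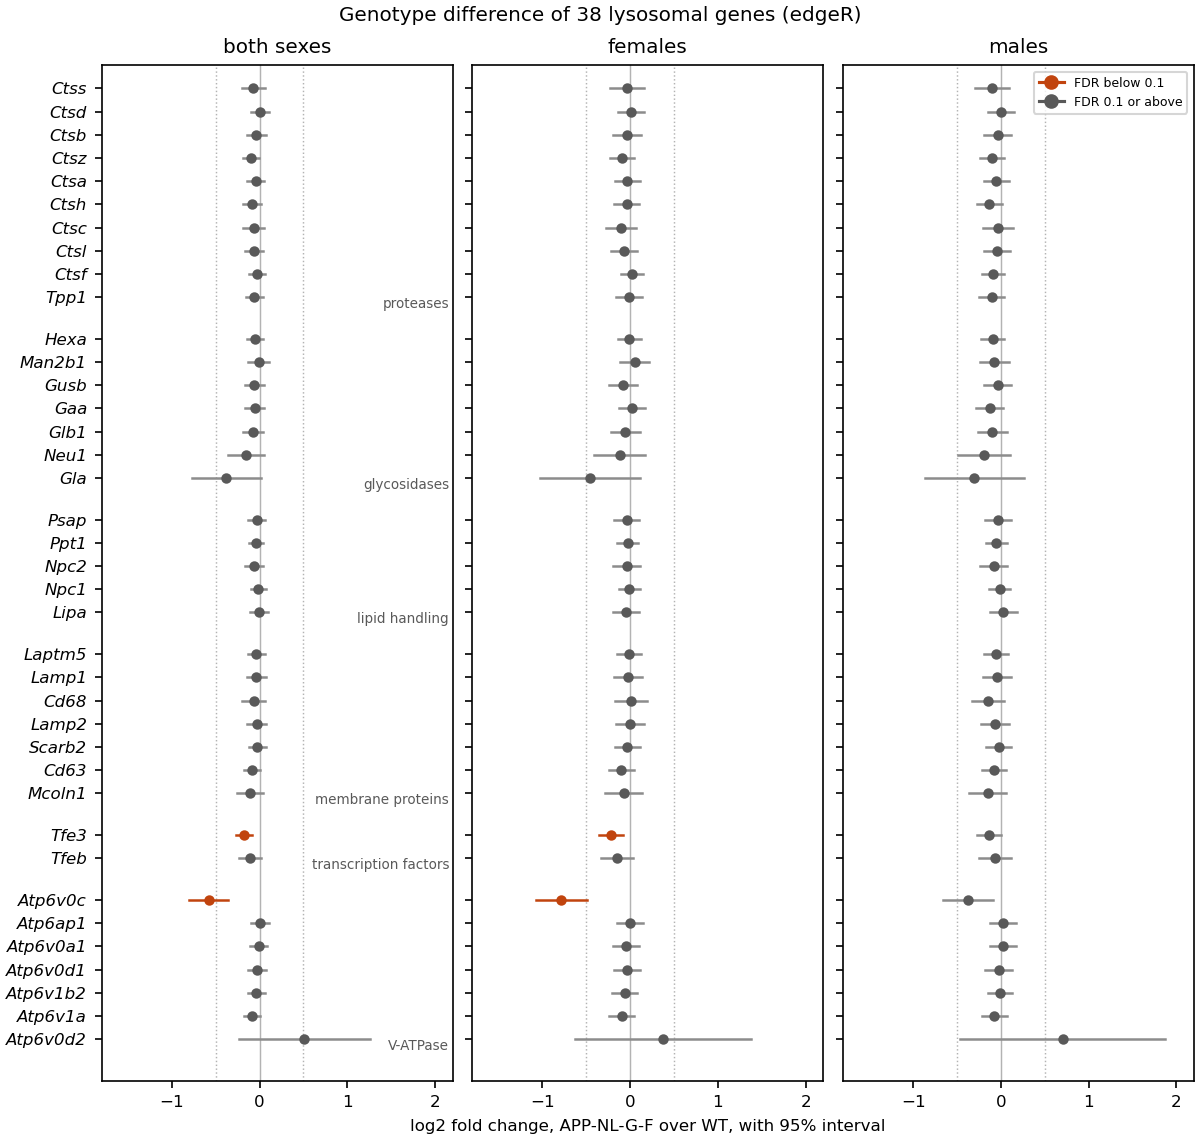
Log2 fold change of APP-NL-G-F over WT for the 38 genes, grouped by role, over both sexes, in females and in males. Points are edgeR estimates, bars are 95% intervals, orange marks an FDR below 0.1 and dotted lines mark ±0.5. Atp6v0c lies at -0.58, -0.79 and -0.37 in the 3 panels, and the wide bars belong to Atp6v0d2 and Gla.

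Among the 7 V-ATPase genes, Atp6v0c was the one that changed. It encodes the c subunit, the small proteolipid that forms most of the rotating ring through which protons pass, and lies at chr17:24382835-24389703 (GRCm39, minus strand). WT females had 135, 137, 156 and 138 CPM, and APP-NL-G-F females had 74.6, 78.1, 77.7 and 98.0 CPM. WT males had 105, 114, 125 and 115 CPM, and APP-NL-G-F males had 70.6, 66.0, 110 and 107 CPM. The genotypes did not overlap in females, whereas in males 2 of the 4 APP-NL-G-F libraries lay within the WT range. The share of all genes with separate ranges in females was not counted.

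Over both sexes Atp6v0c fell by 33.2%, a log2 fold change of -0.58 (SE 0.106, 95% interval -0.80 to -0.36, edgeR FDR 0.00225). An exact permutation test on its log2 CPM, exchanging genotype labels within each sex in all 4900 ways, gave a two-sided p of 0.00122 before any correction. It used the same libraries that picked the gene and so is not independent of the edgeR result. In females the log2 fold change was -0.79 (SE 0.137, FDR 0.00233) and in males -0.37 (SE 0.137, FDR 0.294). The difference between the sexes was -0.41 and did not pass the correction (edgeR FDR 0.83). With no filter on low counts, the male result (edgeR FDR 0.00114) and this difference both passed the FDR. The male result also passed it without APP-NL-G-F male replicate 3. The gene was called over both sexes in each of 16 fits without 1 library. Reads of the proteolipid can match its processed copies, of which Atp6v0c-ps2 held 3 to 15 counts and Atp6v0c-ps1 at most 1 count per library.

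The genotype difference of Atp6v0c was also read within parts of the library series. The library names number the samples from 1 to 16, and names 1 to 8 and 9 to 16 each hold 2 libraries of every group. What the numbering stands for is not given in the sources used here. Within names 1 to 8 the log2 fold change was -0.77 (SE 0.0583, FDR 1.09e-05), and within names 9 to 16 it was -0.44 (SE 0.118, FDR 0.218), in fits that called 13.5% and 0.438% of their genes. The difference between these 2 effects was 0.32 (SE 0.153, edgeR FDR 0.622).

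Immediate early genes, which stimulation and tissue dissociation are known to induce, varied across the same libraries. For 8 of them (Fos, Fosb, Jun, Junb, Egr1, Ier2, Atf3 and Dusp1, a list chosen after the data were seen), the summed level was 9530 to 13110 CPM in WT females, 5343 to 6244 in WT males, 2800 to 5186 in APP-NL-G-F females and 2449 to 5649 in APP-NL-G-F males. APP-NL-G-F female replicate 4 and male replicates 3 and 4, with the 3 highest Atp6v0c values of that genotype, had summed levels of 5186, 4983 and 5649 CPM. The other 5 APP-NL-G-F libraries had 2449 to 3489 CPM. Among WT females the order was not the same: replicates 1 to 4, at 135, 137, 156 and 138 CPM of Atp6v0c, had summed levels of 12470, 13110, 9554 and 9530 CPM. The part of these genes in the Atp6v0c result was not tested.

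The other 6 pump genes did not pass the test. Atp6v1a, the catalytic A subunit of the head, had the lowest FDR among them, with a log2 fold change of -0.09 (SE 0.0451, FDR 0.261). Estimates for Atp6v1b2 (the B subunit of the head), Atp6v0d1 (the d subunit that joins ring and stalk), Atp6v0a1 (an a subunit that lines the proton path) and Atp6ap1 (an accessory protein) lay between -0.04 and 0.01, each with a 95% interval inside ±0.25. Atp6v0d2 had an estimate of 0.51 with an interval of -0.23 to 1.26 (FDR 0.420), which its few counts leave wide.

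Of the transcription factors, Tfe3 fell and Tfeb did not pass the test. Tfe3 (chrX:7628761-7641444, plus strand) was at 125, 124, 131 and 120 CPM in WT females and at 113, 97.6, 106 and 111 CPM in APP-NL-G-F females. In males it was at 111, 119, 119 and 130 CPM in WT and at 105, 102, 120 and 110 CPM in APP-NL-G-F. The ranges were separate in females, which was not counted over all genes, and overlapped in males. Over both sexes the log2 fold change was -0.18 (SE 0.0462, 95% interval -0.27 to -0.08, edgeR FDR 0.0213), a difference smaller than the study's fold threshold. The exact permutation p, from the same libraries that picked the gene, was 0.00327 before any correction. Females gave -0.22 (FDR 0.0532) and males -0.13 (FDR 0.457), and the female result was not firm. Its FDR was 0.124 to 0.167 without WT female replicate 1, 2 or 3 or APP-NL-G-F female replicate 2 or 3, 0.194 with library totals alone and 0.123 with no filter on low counts.

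Tfeb, the better known of the pair, ranged from 28.1 through a median of 32.8 to 35.8 CPM in WT and from 26.8 through 30.1 to 33.6 CPM in APP-NL-G-F. Its log2 fold change was -0.11 (SE 0.0611, 95% interval -0.24 to 0.02, edgeR FDR 0.302). The genotypes overlapped over most of their range.

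**Figure D3:**
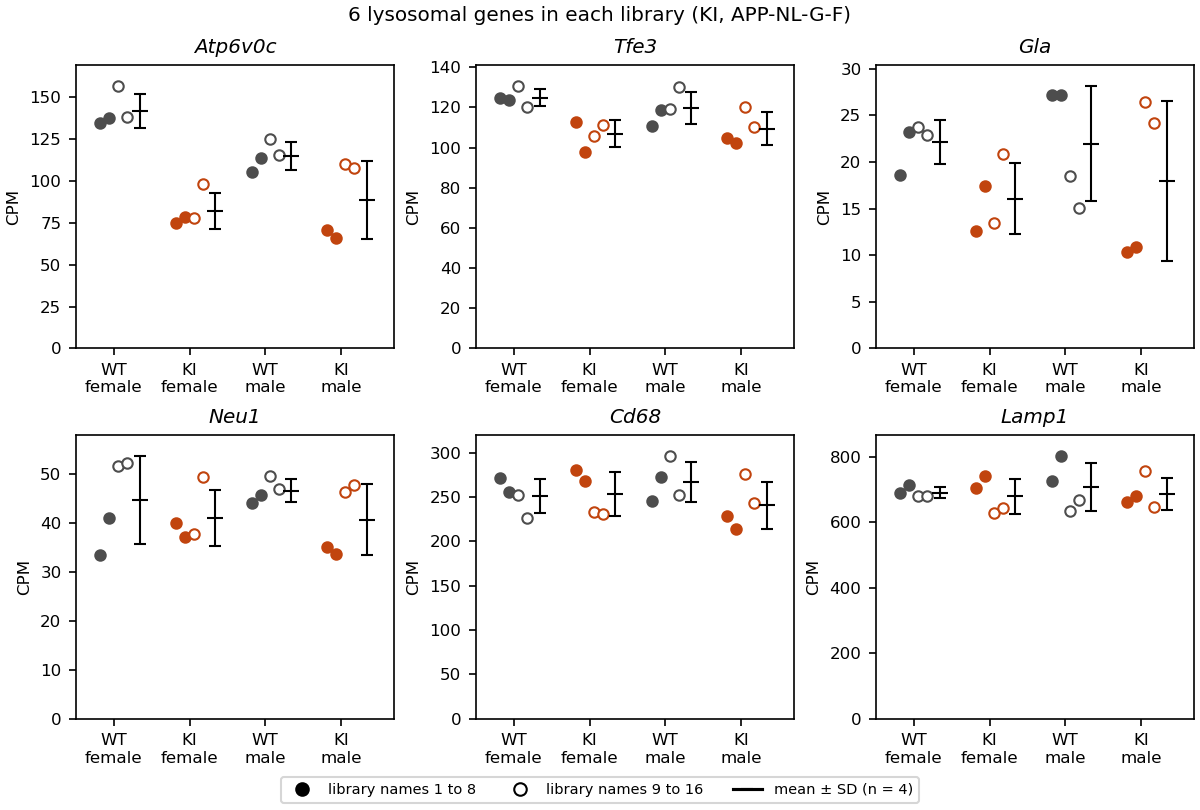
CPM of 6 lysosomal genes in each library, by genotype and sex, with KI standing for APP-NL-G-F. Filled points are library names 1 to 8, open points are names 9 to 16, and bars give the mean ± SD of the 4 libraries. Atp6v0c lies between 74.6 and 98.0 in KI females against 135 to 156 in WT females, while the genotypes overlap for Cd68 and Lamp1.

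Of the 10 proteases none passed the test, and all 10 had a 95% interval inside ±0.25. Ctsz, an exopeptidase also called cathepsin X, came nearest, at 512 to 598 CPM (median 531) in WT and 472 to 568 CPM (median 497) in APP-NL-G-F libraries. These ranges largely overlapped, and the log2 fold change was -0.10 (SE 0.0458, FDR 0.201), with an exact permutation p of 0.0408 before any correction. Ctss, the highest of the group, was at 4568 to 6099 CPM in WT and 4238 to 5394 CPM in APP-NL-G-F, a log2 fold change of -0.07 (SE 0.0638, FDR 0.557). Ctsd, at 0.01 (SE 0.0485), was the only protease with an estimate above 0. The endopeptidases Ctsb and Ctsl, the aminopeptidase Ctsh, the dipeptidyl peptidase Ctsc, the carboxypeptidase Ctsa, the tripeptidyl peptidase Tpp1 and Ctsf lay between -0.08 and -0.03. Ctsz shares 28.3% of its canonical transcript with Nelfcd on the opposite strand, and which strand was counted is not given in the sources used here. Ctsl, Ctsb and Ctsa share 29.5%, 24.8% and 13.4% of theirs with a gene on the opposite strand in the same way, and Ctsd shares 28.4% with Gm49369 on its own strand, which held 0 counts.

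The 7 glycosidases, which remove sugars from glycoproteins and glycolipids, also gave no call. Gla, whose loss causes Fabry disease in people, had the lowest FDR. It was at 18.6, 23.2, 23.8 and 22.9 CPM in WT females and 12.6, 17.5, 13.4 and 20.8 CPM in APP-NL-G-F females. In males it was at 27.2, 27.2, 18.5 and 15.03 CPM in WT and at 10.3, 10.8, 26.4 and 24.2 CPM in APP-NL-G-F. In males the order of the genotypes thus turned between replicates 1 and 2, which have names 1 to 8, and replicates 3 and 4, which have names 9 to 16.

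The log2 fold change of Gla over both sexes was -0.38 (SE 0.187, 95% interval -0.77 to 0.01, FDR 0.223). It was -0.92 (SE 0.173, FDR 0.00509) within names 1 to 8 and 0.08 (SE 0.204, FDR 0.959) within names 9 to 16. The difference between these effects was 0.98 (SE 0.298), which did not pass the correction over all genes (edgeR FDR 0.586). It was the gene of the 38 with the lowest p for this difference, and 0 of the 38 genes and 0 of the 18227 tested passed it, with 2 and 1462 at an unadjusted p below 0.05.

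The remaining glycosidases had estimates from -0.16 for Neu1 (SE 0.0962, FDR 0.354) to -0.01 for Man2b1 (SE 0.0562). Between them lay Glb1 (the β-galactosidase), Gusb (the β-glucuronidase, of whose canonical transcript 23.7% lies opposite Vkorc1l1), Gaa (the enzyme that degrades glycogen) and Hexa (the α subunit of β-hexosaminidase), from -0.08 to -0.05.

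The lipid genes gave no call. Npc2, which hands cholesterol to the membrane protein NPC1, was at 238 to 297 CPM (median 251) in WT and 232 to 280 CPM (median 243) in APP-NL-G-F, with a log2 fold change of -0.06 (SE 0.0501, FDR 0.507). Npc1 (-0.01), the acid lipase gene Lipa (-0.01), Psap (-0.04) and the thioesterase gene Ppt1 (-0.04) lay closer to 0, and all 5 intervals were inside ±0.25.

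Among the 7 membrane proteins, Cd63, a tetraspanin of late endosomes and exosomes, had the lowest FDR. It was at 127 to 144 CPM (median 138) in WT and 119 to 144 CPM (median 128) in APP-NL-G-F, a log2 fold change of -0.09 (SE 0.0451, FDR 0.256). Cd68, which the study stained to mark lysosomes in microglia, was at 272, 256, 253 and 226 CPM in WT females and 280, 269, 233 and 231 CPM in APP-NL-G-F females. WT males had 246, 273, 296 and 253 CPM, and APP-NL-G-F males 229, 215, 276 and 243 CPM. The genotypes overlapped in both sexes. The log2 fold change of Cd68 was -0.07 (SE 0.0631, 95% interval -0.20 to 0.06, FDR 0.559), 0.01 in females and -0.15 in males. By staining, the study reported a larger CD68 volume in APP-NL-G-F microglia, a protein measure per cell. The values here are bulk RNA, so these measures differ in kind.

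Lamp1, the most abundant glycoprotein of the lysosomal membrane, ranged from 636 to 802 CPM (median 685) in WT and from 628 to 756 CPM (median 670) in APP-NL-G-F, a log2 fold change of -0.04 (SE 0.0518, 95% interval -0.14 to 0.07, FDR 0.745). Its canonical transcript overlaps Grtp1 on the opposite strand over 38.3% of its length. Lamp2, Scarb2 (the receptor that carries β-glucocerebrosidase to lysosomes) and Laptm5 had estimates of -0.03, -0.03 and -0.04. Mcoln1, the calcium channel that lysosomes open on stress, had an estimate of -0.11 (SE 0.0695, FDR 0.357).

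In females, 1 of the 38 genes (2.63%) was called, Atp6v0c, against 7.15% of all genes tested, and 2 (5.26%) were under the FDR, against 9.42%. The genes of like level gave 3.47% and 8.67%. The 1304 genes behind the 7.15% became 594, 736 and 696 without WT female replicate 1, WT female replicate 2 or APP-NL-G-F female replicate 3, and 2110 without WT female replicate 4. In males 0 were called (0.252% of all genes) and 0 were under the FDR (0.269%), while 1 (2.63%) had an unadjusted p below 0.05, against 11.7% of all genes. The 46 genes behind the first male share became 5 without APP-NL-G-F male replicate 2 and 603 without APP-NL-G-F male replicate 3. The genotype-by-sex difference gave 0 calls under either rule, against 0.0274% of all genes. For it 1 gene (2.63%) had an unadjusted p below 0.05, against 5.94% of all genes. Between females and males of both genotypes, 0 of the 38 genes were called (0.0604% of all genes) and 0 were under the FDR (0.0713%). There 0 had an unadjusted p below 0.05, against 6.56% of all genes.

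Within groups the lysosomal genes varied about as much as the genes of like level. The SD of log2 CPM between libraries of the same group had a median of 0.0983 over the 38 genes, against 0.239 over all genes tested and 0.111 over the protein-coding genes of like level. The most variable were Atp6v0d2 (0.656), Gla (0.457), Atp6v0c (0.225) and Neu1 (0.224).

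With library names as a term beside genotype and sex, 3 of the 38 genes were under the FDR, against 3.83% of all genes tested. All 3 were higher in names 9 to 16, as were 356 of the 698 genes behind that share. Neu1 averaged 38.7 CPM in names 1 to 8 and 47.6 CPM in names 9 to 16, a log2 difference of 0.30 (SE 0.0670, FDR 0.0368). Mcoln1 averaged 27.5 and 31.9 CPM (0.21, SE 0.0487, FDR 0.0390), and Atp6v0c 97.5 and 116 CPM (0.29, SE 0.0842, FDR 0.0928). Atp6v0c stayed the one gene called for genotype in that fit.

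To place the 38 genes, 178 further genes of the lysosome and autophagy were read in the same fit. Over both sexes 1 (0.562%) was called and 22 (12.4%) were under the FDR, shares below the 8.64% and 14.8% of all genes tested. The genes of like level gave 2.51% and 14%. Of the 22, 19 were lower and 3 higher in APP-NL-G-F, and of the 886 protein-coding genes of like level under the FDR 583 were lower and 303 higher. With both lists put together, 7 of 26 V-ATPase genes (26.9%) were under the FDR, against 14.8% of all genes and 14% of the genes of like level. In females it was 2 of 26 (7.69%), against 9.42% of all genes, and in males 0, against 0.269% of all genes. Over both sexes Atp6v0c, Atp6v1e1, Atp6v1f and Atp6v1g1 (stalk and head subunits), Tcirg1 (an a subunit) and the assembly factor Tmem199 were lower, and Dmxl2, a factor that helps pump assembly, was higher. Atp6v1e1 was at 72.1 to 94.6 CPM (median 83.4) in WT and 66.8 to 76.5 CPM (median 72.1) in APP-NL-G-F, a log2 fold change of -0.23 (SE 0.0501, FDR 0.00667). Of the 7, Atp6v0c was the only one past the fold threshold.

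The autophagy genes Sqstm1 and Optn, cargo receptors that link ubiquitin-tagged material to the forming autophagosome, were the 2 of 28 autophagy genes (7.14%) called in females, a share near the 7.15% of all genes. Sqstm1 was at 231, 242, 253 and 224 CPM in WT females and at 147, 142, 146 and 172 CPM in APP-NL-G-F females. In males it was at 186, 192, 168 and 180 CPM in WT and 136, 142, 192 and 189 CPM in APP-NL-G-F. The genotypes were apart in females, which was not counted over all genes, and overlapped in males. Its log2 fold change was -0.65 in females (SE 0.0998, FDR 0.00112), -0.14 in males (FDR 0.612) and -0.39 over both sexes (FDR 0.0101). The difference between the sexes, -0.50, did not pass the correction (edgeR FDR 0.335). Optn was at 21.2 to 23.1 CPM in WT females and 13.95 to 16.1 CPM in APP-NL-G-F females, a log2 fold change of -0.61 (SE 0.114, FDR 0.00397), and at -0.20 in males (FDR 0.525).

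Of 25 genes that control TFEB and mTORC1, 4 (16%) were under the FDR, 2 higher and 2 lower, a share near the 14.8% of all genes. Rragb, a Rag GTPase that brings mTORC1 to the lysosome, was the one gene of the 178 called over both sexes. It was at 1.86 to 3.05 CPM (median 2.08) in WT and 2.54 to 4.96 CPM (median 3.37) in APP-NL-G-F libraries, overlapping ranges with a log2 fold change of 0.60 (SE 0.141, FDR 0.0124). Rragd, a partner Rag GTPase, rose by 0.23 (FDR 0.0288), while Flcn, which acts on Rragd and its close relative, had -0.26 (FDR 0.0214) and Rheb, the GTPase that activates mTORC1, had -0.20 (FDR 0.0843).

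Cln8, an endoplasmic reticulum protein that helps export lysosomal enzymes, was at 96.1 to 117 CPM in WT and 76.2 to 101 CPM in APP-NL-G-F (-0.33, SE 0.0592, FDR 0.00194). Slc15a4, a histidine and peptide transporter of endolysosomes, was at 68.5 to 93.2 CPM in WT and 50.9 to 76.2 CPM in APP-NL-G-F (-0.34, SE 0.0714, FDR 0.006). Of the 8 APP-NL-G-F libraries, 1 lay within the WT range for Cln8 and 4 for Slc15a4. The 6 genes described here in full were picked in fits that hold all 16 libraries, and their estimates were also read within names 1 to 8 and 9 to 16, where the fits called 13.5% and 0.438% of all genes. The log2 fold changes in the former and the latter were -0.59 and -0.22 for Sqstm1, -0.58 and -0.24 for Optn, 0.68 and 0.51 for Rragb, -0.44 and -0.22 for Cln8, -0.40 and -0.29 for Slc15a4, and -0.35 and -0.12 for Atp6v1e1. All 6 had an FDR below 0.1 in the former, and in the latter the lowest FDR of the 6 was 0.434. Among 43 further hydrolases only Dnase2a was under the FDR (-0.14, FDR 0.0934). This was 2.33% of them, against 14.8% of all genes and 14% of the genes of like level. In males 0 of the 178 genes were under the FDR, against 0.269% of all genes, and 13 (7.30%) had an unadjusted p below 0.05, against 11.7% of all genes.

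**Figure D4:**
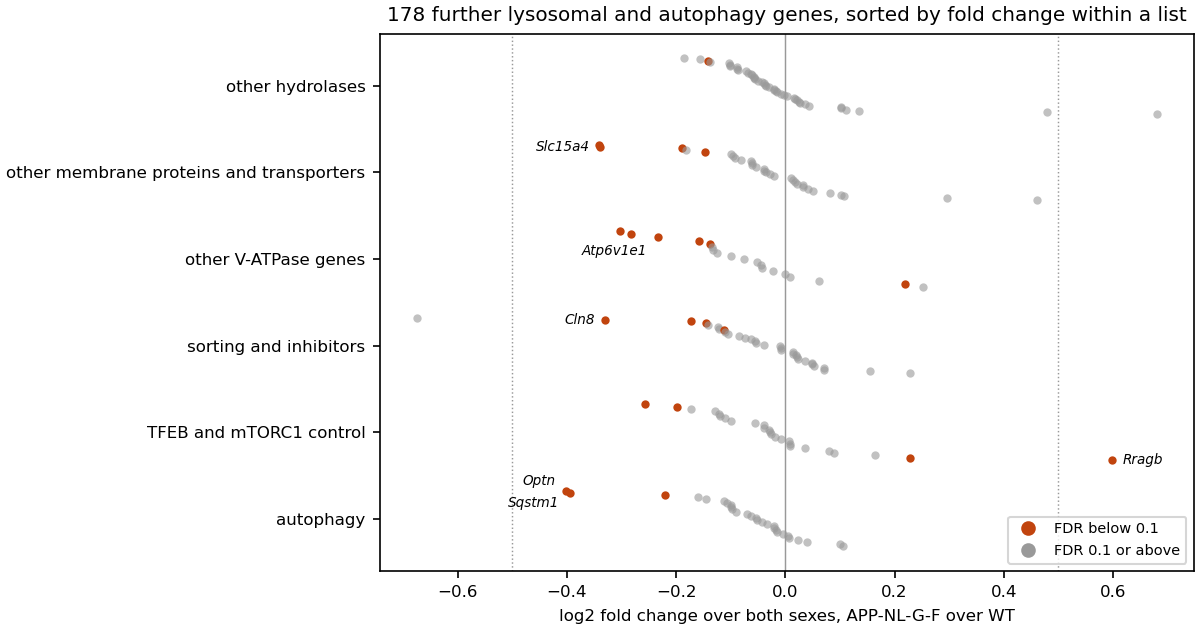
Log2 fold change over both sexes of 178 further lysosomal and autophagy genes, sorted within each list along the vertical. Orange points have an FDR below 0.1, dotted lines mark ±0.5, and the genes described in the text are named. Rragb at 0.60 is the only orange point past the dotted lines, and 19 of the 22 orange points lie below 0.

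Cell type markers were read beside these results, since CD11b enrichment can leave other cells. The 10 microglial markers summed to 15550 ± 683 CPM (SD, n = 8) in WT libraries and to 15750 ± 899 CPM in APP-NL-G-F, led by Csf1r, and 0 of them were called. The gene that leads each list is the marker of highest mean level. Over all genes tested, 8.64% were called and 14.8% were under the FDR. The 10 neuronal markers summed to 535 ± 67.2 CPM in WT libraries and to 707 ± 94.6 CPM in APP-NL-G-F, led by Map2, with 5 under the FDR and 1 called higher. Stmn2 and Slc17a7 averaged lower in APP-NL-G-F, while the other neuronal markers averaged higher. The 6 neuroblast markers, led by Tubb2b, summed to 65.1 ± 5.93 and 80.9 ± 10 CPM, with 3 under the FDR and 1 called higher. The 7 oligodendrocyte markers, led by Mbp, summed to 289 ± 69.8 and 359 ± 46.3 CPM, with 3 under the FDR and 1 called higher. The 8 astrocyte markers, led by Slc1a2, summed to 745 ± 216 and 633 ± 119 CPM, with 1 under the FDR, and the 8 border macrophage markers, led by Mrc1, to 593 ± 103 and 644 ± 109 CPM, with 0. No marker of these lists was at 0 in every library. In bulk RNA, fewer cells of a type and less RNA per cell cannot be told apart, and the part of other cells in the values of the lysosomal genes was not tested.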

How the data were processed

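RNA of CD11b-enriched olfactory bulb microglia was sequenced as SMART-Seq Stranded libraries. Per the authors, paired-end reads were mapped by STAR on GRCm39 (GENCODE genes plus human App), and they deposited raw read counts per gene for each library, with no normalization. In such counts, reads that match near-identical copies can be lost or split, and the strand setting is not given in the sources used here.

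Counts were analysed in R 4.3.3 with edgeR 4.0.16. A gene was kept where 8 or more of the 16 libraries held 5 or more of its counts. TMM factors were computed, and glmQLFit with a trended dispersion and glmQLFTest gave genotype with sex as an additive term. The study also used edgeR's quasi-likelihood tests and controlled for sex. Values for females, males and the genotype-by-sex difference came from a fit of 4 groups. FDRs are Benjamini-Hochberg values over all 18227 genes. The standard error is the size of the log2 fold change over the square root of F. CPM uses library totals times TMM factors, and log2 CPM has a prior count of 2. Lengths, positions and promoters come from GENCODE on GRCm39, which matched 95.3% of tested genes by symbol. Every pair of libraries of 1 group differed by more than sampling noise.

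All 38 genes are named. Given in full are the member of lowest FDR in each role, Cd68, Lamp1 and Tfeb, and of the 178 further genes those called in any comparison and otherwise the 5 of lowest p. Other genes named from the 178 and the immediate early genes were chosen after their values were seen. The 38 genes, the lists and the tests were chosen with earlier results of these data known. Procedures were tested on simulated data. Alternatives were DESeq2 1.42.0, limma 3.58.1 (voom), other scalings, filters and thresholds, a replicate block, library names, no sex term and leaving out each library. The test of whether the genotype effect differs between library names was added after seeing the data.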

Additional observations from a re-analysis of the deposited data

Results flagged for a closer look

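In groups of 4 libraries, a library was looked at again where its gap to the nearest other library, divided by the range of the group, was above the critical value of Dixon's test. This was done for the 38 genes and the 6 further genes described in full, 176 groups in all, and 8 groups met it where chance gives about 1 in 20, or 8.8. Atp6v0c met it in 2 groups: WT female replicate 3 was highest (156 CPM, ratio 0.835) and APP-NL-G-F female replicate 4 was highest (98.0 CPM, ratio 0.83). WT female replicate 3 was also highest for Ctsa (562 CPM, ratio 0.901). The remaining 5 were Gla, lowest in WT female replicate 1 (ratio 0.846), Lamp2, highest in APP-NL-G-F male replicate 3 (0.934), Atp6v0d2, lowest in WT male replicate 2 (0.844), Slc15a4, lowest in APP-NL-G-F female replicate 3 (0.83), and Rragb, highest in APP-NL-G-F male replicate 2 (0.867). Without WT female replicate 3 or APP-NL-G-F female replicate 4, Atp6v0c was still called over both sexes and in females.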

How the results depend on the processing

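Over both sexes, 1 gene was called, Atp6v0c, in each of the 16 fits that left out 1 library (range 1 to 1) and in all other alternatives but 2: with only library names 1 to 8 there were 2 calls, Gla and Atp6v0c, and with only names 9 to 16 there were 0, with 4 libraries of each genotype in place of 8. The log2 fold change of Atp6v0c ranged from -0.64 to -0.53 without 1 library and from -0.77 to -0.44 over the other alternatives, with an FDR of up to 0.218. The number of genes under the FDR, 2, became 5 without APP-NL-G-F male replicate 3 (Gla, Gusb and Ctsz added) and 0 with only names 9 to 16. Of the genes given in full, the estimate turned in sign for Lamp1, to 0.014 with library totals alone, 0.011 with only names 9 to 16 and 0.003 without WT male replicate 2 (range without 1 library -0.051 to 0.003), and for Gla, to 0.075 with only names 9 to 16; the cause was not tested. Without 1 library Npc2 ranged from -0.078 to -0.023 (without WT male replicate 2) and Cd68 from -0.091 to -0.03 (the latter with APP-NL-G-F male replicate 2 left out), neither under the FDR. Tfeb ranged from -0.132 to -0.07 (without APP-NL-G-F female replicate 2) and was -0.058 with library totals alone, not under the FDR. In males Sqstm1 ranged from -0.227 to -0.064 and Optn from -0.306 to -0.089, neither under the FDR. For both genes these ends came without APP-NL-G-F male replicate 4 and replicate 1. The number of all genes called, 1574, ranged from 80 (only names 9 to 16) to 2503 (only names 1 to 8). In females, where 1304 of all genes were called, the number ran from 594 to 2110 without 1 library. In males, where 46 of all genes were called, it ranged from 5 to 603 without 1 library and reached 880 with no filter on low counts, under which Atp6v0c passed the FDR in males and for the genotype-by-sex difference. Atp6v0c also passed it in males without APP-NL-G-F male replicate 3. The genotype-by-sex difference went from 5 calls among all genes to 1 with limma voom and 470 with no filter. Between females and males of both genotypes, the 11 calls among all genes became 5 without WT male replicate 1 and 57 with no filter. With library totals alone the median of all genes moved from -0.001 to 0.05. Whether the replicate numbers pair the samples is not clear from the correlations of their deviations. Over 24 pairs of libraries with the same number the correlation ran from -0.33 to 0.292, and 8 were over 0.1. Of the 16 libraries, 8 correlated best with their own number. With the replicate block, the same gene, 1, was called and the same 2 were under the FDR. Depth limits the genes of few counts: Atp6v0d2, with 3 to 19 counts a library, has an interval from -0.23 to 1.26.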
